A study of Arabidopsis thaliana with 8 samples.

Results

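The plastid genome encodes part of the machinery that expresses it. Here 26 of its genes, for gene expression and other functions, were followed through a heat shock in Arabidopsis thaliana seedlings. A gene was taken when its locus lies in the plastid genome, when an array probe set was paired with that gene alone, and when its symbol does not begin with psa, psb, pet, atp, ndh or rbc. The first letters of the symbol alone decided membership, and no measured value was used. This gave 26 of the 69 plastid genes with such a probe set, each with 1 probe set, out of 13513 single-gene probe sets on the array. They comprised 4 RNA polymerase subunits (rpoA, rpoB, rpoC1 and rpoC2), 8 proteins of the small ribosomal subunit (rps2, rps3, rps4, rps14, rps15, rps16, rps18 and rps19) and 7 proteins of the large ribosomal subunit (rpl14, rpl16, rpl20, rpl22, rpl32, rpl33 and rpl36). The remaining 7 have other functions: matK, clpP, accD, ccsA, cemA, ycf3 and ycf4. The other 43 plastid genes, for the photosystems, the cytochrome b6f complex, ATP synthase, the NDH complex and rbcL, served as the comparison.

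Chloroplast genes are transcribed by a bacterial-type RNA polymerase, whose core subunits are the products of the rpo genes, and by phage-type polymerases that are encoded in the nucleus. The nuclear-encoded enzymes are known for transcribing the rpo genes, accD and some ribosomal protein genes, whereas the genes of the photosystems depend largely on the bacterial-type enzyme. Most plastid genes lie in clusters that are transcribed together and then cut and trimmed, so that the stability of each RNA contributes to its level, and a poly(A) tail on a plastid RNA marks it for decay. The sources used here do not say how the cDNA was primed, and whether the values followed all RNA of a gene or mainly tailed RNA was not tested.

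RNA came from whole seedlings at 7 days of age, in pools of roughly 100 plants, and each pool was read on its own Affymetrix array. The 4 groups were wild type (Col-0) at 22 °C, wild type harvested straight after a 37 °C heat shock, and the same pair for til1-1, a mutant of the temperature-induced lipocalin gene TIL, each with 2 biological replicates. The sources used here do not say how long the heat shock lasted or what kind of mutation the allele is. All values are intensities in the arbitrary units of the array software, and 8 arrays limit the precision of each one.

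The probe set of TIL had mean intensities at 22 °C of 3464 (SD 469) for the wild type pair and 3108 (SD 84.7) for the til1-1 pair, whose ranges overlapped. Heat-shocked pairs had means of 20770 (SD 676) and 5573 (SD 327). TIL thus bore out the genotype label after heat shock and not before it, and for that reason the text speaks of samples labelled til1-1. The deposited arrays share a trimmed mean of 500.04 or 500.05, yet their medians were 197.4 to 203.85 at 22 °C and 154.75 to 160.15 at 37 °C. A probe set for 25S rRNA was 8.23-fold higher after heat shock in wild type and 8.86-fold higher in the samples labelled til1-1. The actin 3′ to 5′ ratio, a measure of RNA integrity, went from 1.74 to 2.01 and from 1.65 to 2.08, that of GAPDH from 1.00 to 0.997 and from 0.953 to 1.02, and that of ubiquitin from 1.16 to 1.09 and from 1.19 to 0.992, in wild type and the samples labelled til1-1. The part of these shifts in the plastid results below was not tested.

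After heat shock, rises and falls both occurred among these genes on the arrays as deposited. In that form 8 members rose and 2 fell in wild type, and 7 rose and 3 fell in the samples labelled til1-1, by limma at a Benjamini-Hochberg adjusted p under 0.05 over all 17059 probe sets tested. After the arrays were scaled to spiked control RNAs instead, 15 members fell and 0 rose in wild type (0 at an unadjusted p under 0.05), and 12 fell and 0 rose in the samples labelled til1-1 (0 at an unadjusted p under 0.05). Under that scaling 65.1% of all tested probe sets fell and 4.73% rose in wild type, and 66.6% fell and 4.76% rose in the samples labelled til1-1, so that the members' shares of falls, 57.7% and 46.2%, lay below the background. All 26 were bright enough to be tested. As deposited, 43.7% of all probe sets tested passed in wild type, 12.4% as higher and 31.3% as lower. For the samples labelled til1-1 these shares were 44.3%, 12.7% and 31.6%. The members called higher made up 30.8% of the 26 in wild type and 26.9% in the samples labelled til1-1, above those backgrounds, and the members called lower made up 7.69% and 11.5%, below them. At an unadjusted p under 0.05, 11 members passed in wild type (background 51.0%) and 12 in the samples labelled til1-1 (background 51.7%).

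Both replicates after heat shock lay above both controls for 13 members in wild type (background 23.8%) and below them for 8 (background 50.5%). In the samples labelled til1-1 the corresponding counts were 11 (background 23.0%) and 3 (background 49.0%). The 6 genes matK, rps4, accD, cemA, rpl32 and ccsA rose in both genotypes with the arrays as deposited, and none of these rises passed with spiked controls. Among the members rps18 and rpl22 fell in both, and 14 members passed in neither. Of the 10 genes called in each genotype, 8 were shared (80.0% of either list). The sharing of calls over all tested probe sets was not determined, so this is not read as a trait of the members. Each array is a mixture of tissues, in which fewer cells of a type and less RNA per cell cannot be told apart.

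The median log2 fold change of the 26 members, on the scale of log2(intensity + 16), was 0.10 in wild type and 0.18 in the samples labelled til1-1. All tested probe sets had medians of -0.18 and -0.19. Relative to these, the members stood 0.28 and 0.37 higher, with 19 and 20 of the 26 above the median of all. The other 43 plastid genes had medians of 0.45 and 0.64, and 31 of them passed in wild type and 39 in the samples labelled til1-1, all as higher with the arrays as deposited. Relative to all tested probe sets the direction of the members turned under 1 scaling, and in wild type only. After quantile normalization the members' median minus that of all probe sets was -0.14 in wild type. In the samples labelled til1-1 it was 0.00, with 13 of the 26 above the median of all.

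**Figure D1:**
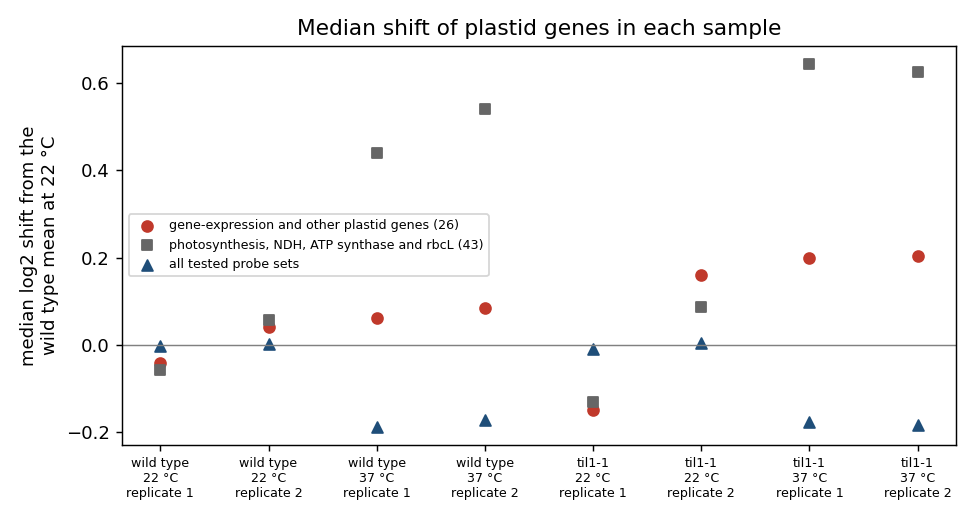
Median shift of log2(intensity + 16) from the wild type mean at 22 °C, in each of the 8 samples, for the 26 gene-expression and other plastid genes (circles), the 43 genes of photosynthesis, NDH, ATP synthase and rbcL (squares) and all tested probe sets (triangles), with the arrays as deposited. The 26 genes sit between 0.06 and 0.20 at 37 °C and the 43 genes between 0.44 and 0.64, while the 2 samples labelled til1-1 at 22 °C differ from each other; after scaling to spiked controls the median of the 26 genes is lower at 37 °C than at 22 °C.

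The replicates did not repeat each other equally well. In the samples labelled til1-1 at 22 °C, 25 of 26 members and 42 of 43 other plastid genes read higher in replicate 2 than in replicate 1, by a median of 0.32 on the log2 scale over the members, whereas 52.6% of all tested probe sets did so. Heat-shocked wild type gave 16 of 26 members and 27 of 43 other plastid genes (50.2% of all tested probe sets). The heat-shocked mutant pair gave 12 and 21 (48.3%). Wild type at 22 °C gave 20 and 37 (50.9%), so an excess in replicate 2 was not confined to the mutant controls. Over the members its median was 0.08 for wild type at 22 °C and 0.32 for the group of mutant controls. Without replicate 1 of that group, 6 members fell (background 23.3%), and the median heat response of all 26 was 0.02. Without replicate 2, 14 members rose (background 10.0%), and the median of all 26 was 0.38. In wild type the number of rises went from 8 to 3 without replicate 1 at 22 °C (background 8.89%) and to 5 without replicate 2 at 37 °C (background 10.9%).

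**Figure D2:**
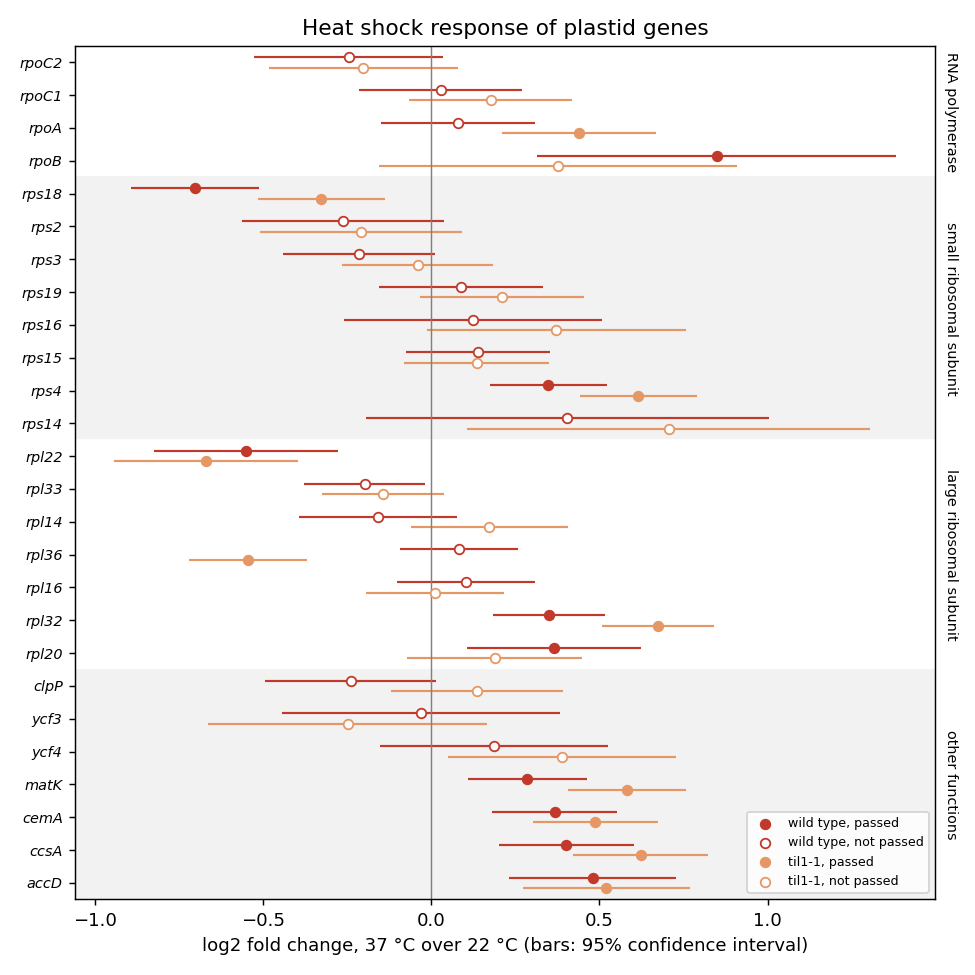
Log2 fold change from 22 °C to 37 °C with its 95% confidence interval for each of the 26 plastid genes, grouped by role, in wild type and in the samples labelled til1-1, with the arrays as deposited. Filled circles passed limma at an adjusted p under 0.05; rps18 and rpl22 lie below 0 in both genotypes, and under other array scalings most of the genes on the right of 0 cross it.

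Among the RNA polymerase genes as deposited, rpoB passed in wild type and rpoA in the samples labelled til1-1, each as higher. rpoC1 and rpoC2 passed in neither. The probe set of rpoB, which encodes the beta subunit, read 76.4 and 137 in wild type at 22 °C and 164 and 239 at 37 °C. The samples labelled til1-1 read 130 and 138, then 167 and 191 after heat shock. These were dim values, higher at 37 °C in each genotype with no overlap, and the lowest of the 8 was replicate 1 of wild type at 22 °C. In wild type rpoB rose by 0.85 ± 0.24 (standard error; adjusted p = 0.0141), but it did not pass when that replicate or replicate 2 at 37 °C was left out. The change in the samples labelled til1-1 was 0.38 ± 0.24 (adjusted p = 0.236).

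rpoA encodes the alpha subunit and is transcribed with a large group of ribosomal protein genes. Wild type pools read 6442 and 6006 before heat shock, and 6790 and 6367 after it. Pools labelled til1-1 read 5554 and 7151, then 8164 and 8954. Only the second genotype showed groups without overlap, and there rpoA rose by 0.44 ± 0.10 (adjusted p = 0.00488), a call lost without replicate 1 at 22 °C, against 0.08 ± 0.10 in wild type (adjusted p = 0.572). Scaled to spiked controls, the same changes were -0.03 and -0.38.

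The genes for the beta′ and beta″ subunits, rpoC1 and rpoC2, were not called as deposited. rpoC1 read 3706 and 3947, then 3965 and 3840 after heat shock, in wild type, and 3237 and 4340, then 4188 and 4293, in the samples labelled til1-1. rpoC2 read 1243 and 1329, then 1020 and 1147, in wild type, and 1115 and 1525, then 1161 and 1103, in the samples labelled til1-1. For rpoC2 the wild type groups did not overlap, with heat-shocked samples lower, while the groups of the samples labelled til1-1 overlapped. Log2 fold changes were 0.03 and 0.18 for rpoC1 and -0.25 and -0.20 for rpoC2, in wild type and the samples labelled til1-1. With spiked controls, falls passed for rpoC2 in both genotypes (-0.70 and -0.67) and for rpoC1 in wild type (-0.43). rpoC1 passed as a rise in both genotypes with array medians set equal (0.38 and 0.52).

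In the small ribosomal subunit, rps4 rose and rps18 fell in both genotypes as deposited, and the other 6 genes did not pass in that form. rps4 encodes a protein that binds ribosomal RNA early in subunit assembly in bacteria. It read 11434 and 11760 in wild type at 22 °C and 15142 and 14400 at 37 °C. In the samples labelled til1-1 it read 10363 and 11907, then 17947 and 16153. Every heat-shocked sample exceeded every control, and the rises were 0.35 ± 0.08 (adjusted p = 0.00393) and 0.62 ± 0.08 (adjusted p = 6.71e-05). They turned to -0.18 and -0.02 under quantile normalization, neither of which passed.

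rps18 encodes a protein that is essential for plastid ribosomes in tobacco. Its intensity dropped from 3036 and 3151 to 1826 and 1965 in wild type, and from 2577 and 2945 to 2119 and 2272 in the samples labelled til1-1. All 4 heat-shocked samples lay below all 4 controls, and those of wild type were the lowest. It fell by 0.70 on the log2 scale in wild type (standard error 0.09, adjusted p = 4.43e-05), and under each of the 4 array scalings that fall passed, from -0.35 with array medians set equal to -1.16 with spiked controls. It was the single member with that property in wild type. In the samples labelled til1-1 rps18 fell by 0.33 (standard error 0.09, adjusted p = 0.00927), but the value was 0.01 with array medians set equal. That call was also lost without replicate 2 at 22 °C or replicate 1 at 37 °C.

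Among the genes of this subunit that did not pass, rps14 had the highest and rps2 the lowest change. rps14 was dim, at 52.7 and 62.2 in wild type at 22 °C and 90.9 and 72.1 at 37 °C, and at 52.0 and 65.1, then 133 and 82.3, in the samples labelled til1-1. Heat-shocked samples were above controls in each genotype, with changes of 0.40 ± 0.27 (adjusted p = 0.258) and 0.71 ± 0.27 (adjusted p = 0.0542) and a wide gap between the mutant replicates at 37 °C. rps2 read 4082 and 4591, then 3905 and 3332, in wild type, and 3600 and 5049, then 3922 and 3468, in the samples labelled til1-1. Its changes were -0.26 and -0.21, and only the wild type groups were free of overlap. rps3 (-0.21 and -0.04), rps15 (0.14 and 0.14), rps16 (0.12 and 0.37) and rps19 (0.09 and 0.21) did not pass in wild type or in the samples labelled til1-1 as deposited. Falls of rps2 passed in both genotypes after quantile normalization (-0.48 and -0.40) and with spiked controls (-0.72 and -0.68). The same held for rps3 (-0.59 and -0.45, then -0.67 and -0.51). With array medians set equal, 0.30 for rps3 in the samples labelled til1-1 passed as a rise. Under that scaling rps15, rps16 and rps19 rose in both genotypes. With spiked controls rps15 fell in both and rps19 in wild type.

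The large ribosomal subunit held members that moved in opposite directions as deposited. rpl32 rose and rpl22 fell in both genotypes. rpl20 passed as a rise in wild type and rpl36 as a fall in the samples labelled til1-1, and for neither did the difference between the genotypes pass (adjusted p = 0.87 for rpl20 and 0.552 for rpl36). rpl32, which codes for a small protein of the 50S particle, read 7152 and 7454 in wild type at 22 °C and 9155 and 9469 at 37 °C, and 6860 and 7596, then 10941 and 12151, in the samples labelled til1-1. The heat-shocked samples were separate from the controls, and those labelled til1-1 were the highest. The rises were 0.35 ± 0.08 (adjusted p = 0.00284) and 0.67 ± 0.08 (adjusted p = 2.18e-05), and in wild type the value was -0.03 after quantile normalization and -0.11 with spiked controls.

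rpl22 encodes a protein that in bacteria lines the tunnel through which the growing chain leaves the ribosome. It read 7626 and 7412 in wild type at 22 °C and 4864 and 5404 at 37 °C, and 6017 and 8371, then 4716 and 4216, in the samples labelled til1-1. No heat-shocked sample reached the lowest control, although the mutant controls differed widely. rpl22 fell by 0.55 in wild type (standard error 0.13, adjusted p = 0.00362) and by 0.67 in the samples labelled til1-1 (standard error 0.13, adjusted p = 0.00101). The direction was the same under all 4 scalings, and with array medians set equal the wild type value, -0.20, did not pass.

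rpl36 encodes a very small protein of the large subunit, which tobacco plastids can do without. It read 5304 and 5185 in wild type at 22 °C and 5502 and 5599 at 37 °C. In the samples labelled til1-1 it read 5762 and 6721 at 22 °C and 4370 and 4159 at 37 °C. The mutant controls were the highest of the 4 groups and the mutant heat-shocked samples the lowest. The change was 0.08 ± 0.08 in wild type (adjusted p = 0.442), while in the samples labelled til1-1 it fell by 0.54 (standard error 0.08, adjusted p = 0.000177). This fall passed under all 4 scalings, from -0.20 to -1.02. With 1 sample left out at a time its value was -0.65 to -0.43, and leaving out a wild type sample cannot change it.

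rpl16 read 12522 and 12207, then 13526 and 13039, in wild type, and 11775 and 14842, then 13821 and 12855, in the samples labelled til1-1. Its changes of 0.10 and 0.01 did not pass as deposited. rpl16 passed as a rise in both genotypes with array medians set equal (0.455 and 0.35). It passed as a fall in both after quantile normalization (-0.43 and -0.665) and with spiked controls (-0.36 and -0.46). rpl20 rose by 0.36 ± 0.12 in wild type (adjusted p = 0.0262), a call that was lost when any of the 4 wild type samples was left out, and its value in the samples labelled til1-1 was 0.19. rpl33, whose product supports recovery from cold in tobacco, gave -0.20 and -0.14, and rpl14 gave -0.16 and 0.17, none of which passed as deposited. Falls of rpl33 passed in both genotypes after quantile normalization (-0.65 and -0.63) and with spiked controls (-0.66 and -0.62). rpl14 fell with spiked controls in both (-0.62 and -0.30) and after quantile normalization in wild type (-0.40). With array medians set equal it rose in the samples labelled til1-1 (0.51).

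Of the 7 genes with other functions, matK, accD, cemA and ccsA rose in both genotypes with the arrays as deposited, and clpP, ycf3 and ycf4 passed in neither. The rises of matK, cemA and ccsA in wild type turned negative, without passing, under quantile normalization and with spiked controls. accD codes for the plastid subunit of acetyl-CoA carboxylase, which supplies malonyl-CoA for fatty acid synthesis. It read 2435 and 3109 in wild type at 22 °C and 4073 and 3630 at 37 °C, and 2752 and 3145, then 4396 and 4064, in the samples labelled til1-1. All heat-shocked samples exceeded all controls, and accD rose by 0.48 ± 0.11 (adjusted p = 0.00471) and 0.52 ± 0.11 (adjusted p = 0.00287). Its sign was positive under each scaling in both genotypes, although with spiked controls the values were 0.02 and 0.05 and did not pass. Without replicate 1 at 22 °C the wild type call was lost, with a value of 0.31.

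ccsA encodes a protein that helps attach haem to the c-type cytochromes of the chloroplast. It read 10166 and 11263, then 15659 and 12771, in wild type, and 9739 and 10365, then 15680 and 15293, in the samples labelled til1-1. Heat-shocked samples were again higher without overlap, by 0.40 ± 0.09 (adjusted p = 0.00382) and 0.62 ± 0.09 (adjusted p = 0.000175). cemA, for a protein of the inner envelope membrane, read 11310 and 12357, then 14773 and 15745, in wild type. In the samples labelled til1-1 it read 11397 and 13273, then 16507 and 18041. It rose by 0.37 ± 0.08 (adjusted p = 0.00407) and 0.49 ± 0.08 (adjusted p = 0.000599), but in the samples labelled til1-1 quantile normalization gave a fall that passed (-0.23). matK, the gene of the plastid intron maturase, rose by 0.29 ± 0.08 (adjusted p = 0.0127) and 0.58 ± 0.08 (adjusted p = 0.000109), and the wild type call was lost without replicate 1 at 22 °C or replicate 2 at 37 °C.

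clpP encodes the plastid-made proteolytic subunit of the Clp protease, a major protein-degrading machine of the stroma. It read 10195 and 12001, then 8907 and 9850, in wild type, and 8647 and 11267, then 10357 and 11369, in the samples labelled til1-1. Wild type heat-shocked samples were below their controls, while the mutant groups overlapped, and the changes of -0.24 and 0.14 did not pass as deposited. clpP passed as a fall in both genotypes after quantile normalization (-0.71 and -0.40) and with spiked controls (-0.70 and -0.34). With array medians set equal, 0.48 in the samples labelled til1-1 passed as a rise. ycf3, an assembly factor of photosystem I, read 1675 and 2104, then 1824 and 1851, in wild type, and 1494 and 2393, then 1831 and 1380, in the samples labelled til1-1. Its groups overlapped in each genotype, with changes of -0.03 and -0.25. ycf4, which acts in the same assembly process, gave 0.19 (adjusted p = 0.357) and 0.39 (adjusted p = 0.0605).

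**Figure D3:**
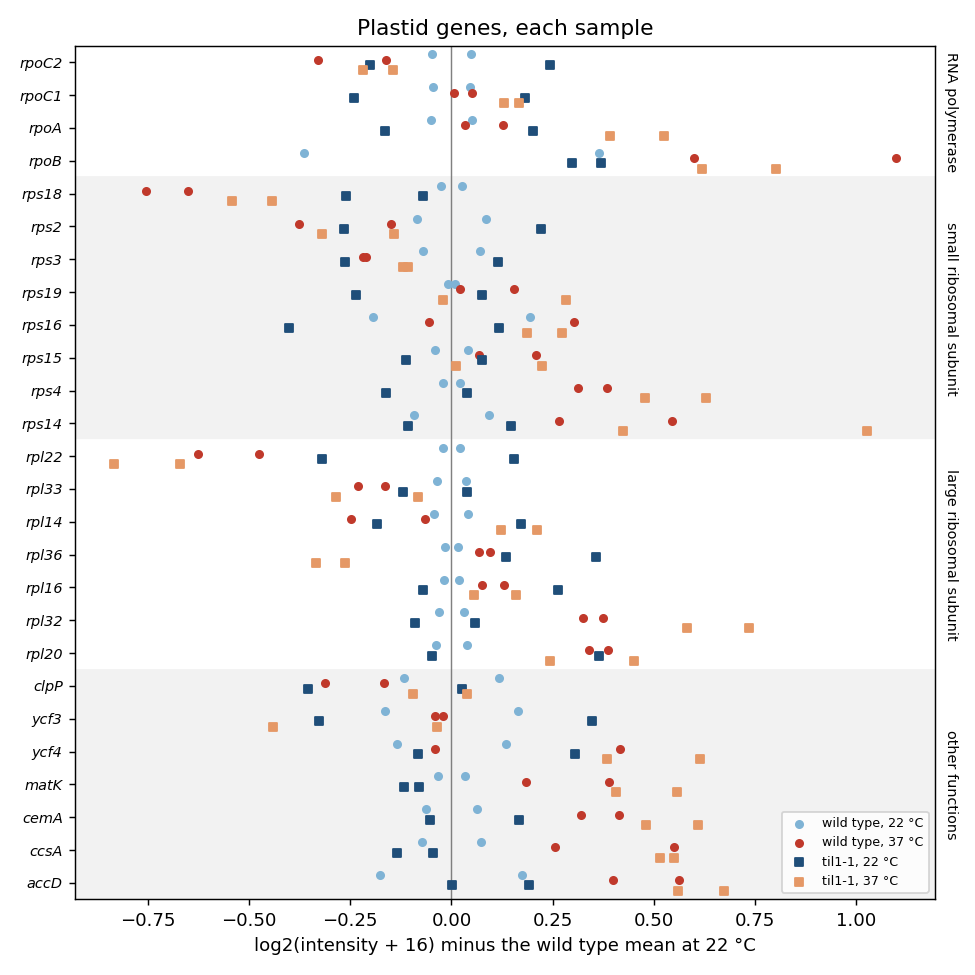
log2(intensity + 16) minus the wild type mean at 22 °C for each of the 26 plastid genes in each of the 8 samples, as deposited, grouped by role (circles wild type, squares samples labelled til1-1). For rps18 all 4 heat-shocked samples lie left of the 4 controls, for rps4, rpl32, ccsA and accD they lie to the right, and the dark squares of the mutant controls are spread for most genes; the positions of the heat-shocked samples against the controls move with the array scaling.

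Most members changed sign under at least 1 of the ways of putting the arrays on a common scale. With array medians set equal, the median of the members was 0.45 in wild type and 0.52 in the samples labelled til1-1, with 16 rises and 1 fall, and 19 rises and 2 falls. Of all tested probe sets 30.4% rose and 14.5% fell in wild type, and 29.5% rose and 14.9% fell in the samples labelled til1-1. Quantile normalization gave medians of -0.18 and -0.06, with 1 rise and 8 falls, and 4 rises and 9 falls, against 15.7% higher and 22.9% lower, and 16.1% higher and 23.8% lower, of all tested probe sets. Scaling to 9 spiked control probe sets gave medians of -0.36 and -0.29. The medians of all tested probe sets moved as well, to 0.14, -0.05 and -0.61 in wild type and to 0.13, -0.06 and -0.62 in the samples labelled til1-1, in that order of scalings. Of all calls in wild type, 28.4% were higher as deposited, 67.7% with medians set equal, 40.7% after quantile normalization and 6.78% with spiked controls. For the samples labelled til1-1 these shares were 28.8%, 66.4%, 40.4% and 6.67%.

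The members that kept a call under all 4 scalings were rps18 in wild type and rpl22 and rpl36 in the samples labelled til1-1, each as a fall. The share of all tested probe sets that kept a call or a sign under all 4 scalings was not determined. Falls made up most calls among all tested probe sets under every scaling but array medians set equal. These counts are therefore not read as a trait of the members. The sign was the same under all 4 for 5 members in wild type (rpoB, rps14, accD, rps18 and rpl22) and for 7 in the samples labelled til1-1 (matK, rps14, accD, rpl36, rpl22, rpl32 and ccsA). Rises passed under 3 of the 4 scalings for rpoB in wild type and for accD and rpl32 in the samples labelled til1-1, with spiked controls as the exception each time.

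**Figure D4:**
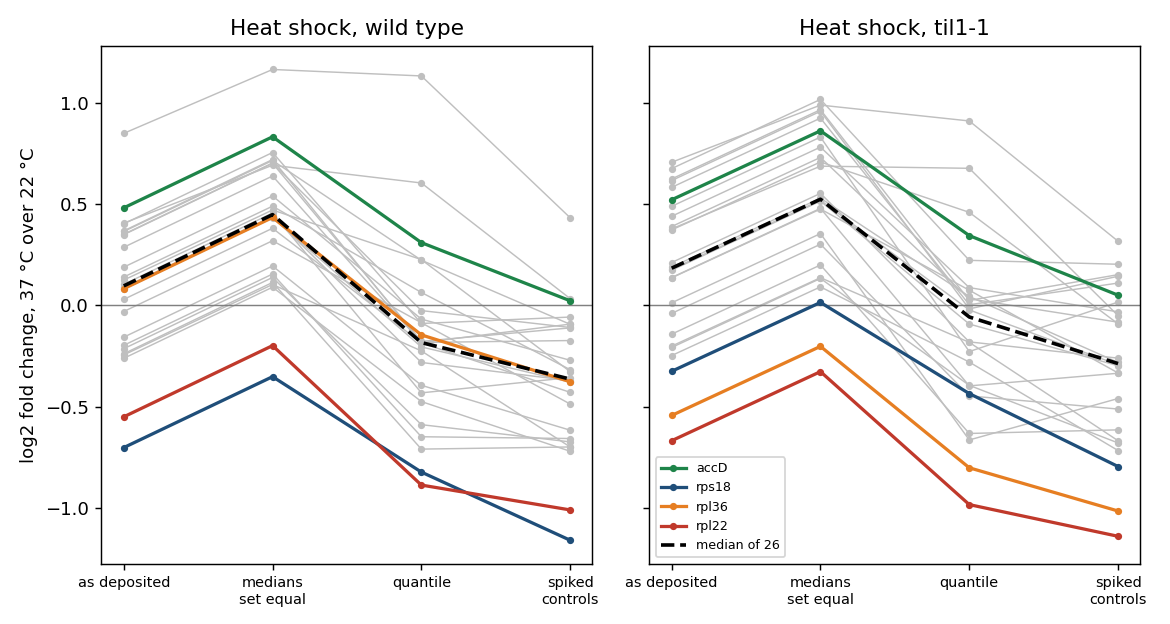
Log2 fold change from 22 °C to 37 °C of the 26 plastid genes under 4 array scalings, in wild type (left) and in the samples labelled til1-1 (right), with 1 line per gene, 4 genes in colour and the median dashed. The median runs from 0.45 with medians set equal to -0.36 with spiked controls in wild type, while rps18 in wild type and rpl22 and rpl36 in the samples labelled til1-1 stay below 0 throughout.

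Several neighbours in the plastid genome moved unequally, and a ratio of nearby genes within an array is free of any factor applied to the whole array. The order of genes was taken from a reference table of the TAIR10.1 assembly, and such a ratio says nothing of which gene moved. In the run rps19, rpl22, rps3, rpl16, rpl14, rpl36, rpoA, the changes of these 7 genes spanned -0.55 to 0.10 in wild type and -0.67 to 0.44 in the samples labelled til1-1. The log2 ratio of rpl22 to its neighbour rps19 was -0.01 and -0.07 in wild type at 22 °C and -0.69 and -0.67 at 37 °C, a mean change of -0.64. In the samples labelled til1-1 it was -0.12 and 0.04, then -0.69 and -1.15, a mean change of -0.88. In both genotypes the heat-shocked samples lay apart from the controls. Against rps3, on its other side, rpl22 changed less, by -0.34 in wild type and -0.63 in the samples labelled til1-1.

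rpl36 was set against rpoA and rpl14 of the same cluster. The log2 ratio of rpl36 to rpoA was -0.28 and -0.21 in wild type at 22 °C and -0.30 and -0.19 at 37 °C, and 0.05 and -0.09, then -0.90 and -1.11, in the samples labelled til1-1. Mean changes were 0.00 and -0.99. The wild type groups of this ratio overlapped and the mutant groups did not. The ratio of rpl36 to rpl14 parted in both genotypes and in opposite directions, from -0.04 and 0.01 to 0.12 and 0.33 in wild type (mean change 0.24) and from 0.30 and 0.17 to -0.49 and -0.47 in the samples labelled til1-1 (mean change -0.72).

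rpl33 and then rps18 follow psaJ, a photosystem I gene that as deposited rose by 0.61 in wild type and 0.77 in the samples labelled til1-1. psaJ was chosen as a partner after its values were seen. The log2 ratio of rps18 to psaJ changed by -1.32 in wild type, from -2.43 and -2.39 to -3.68 and -3.77, and by -1.10 in the samples labelled til1-1, from -2.56 and -2.59 to -3.71 and -3.64. That of rpl33 to psaJ changed by -0.81 and -0.92. The ribosomal genes and their photosystem neighbour thus had unequal changes in every heat-shocked sample. The ratio of rps18 to rpl33, the gene beside it, changed less, by -0.51 in wild type and -0.19 in the samples labelled til1-1. psaJ was brighter than rps18, at 16374 and 16466 against 3036 and 3151 in wild type at 22 °C. A ratio keeps any shift that depends on intensity, and the part of such a shift was not tested. rps2 beside atpI, the gene of an ATP synthase subunit, showed a change in ratio of -0.73 and -0.74. atpI was dim, at 261 and 362 in wild type at 22 °C. As deposited its rise passed limma in the samples labelled til1-1 (0.51, adjusted p = 0.0315) and not in wild type (0.45, adjusted p = 0.0541). rps14 was closer to its neighbour psaB, with changes of 0.40 and 0.71 against 0.52 and 0.84. clpP against rpl20 changed by -0.61 in wild type and -0.05 in the samples labelled til1-1, and within the rpoB, rpoC1 and rpoC2 cluster the changes ranged from -0.25 to 0.85 in wild type and from -0.20 to 0.38 in the samples labelled til1-1, with the dim rpoB at the upper end (0.48 in wild type without replicate 1 at 22 °C). ycf4 and cemA lie between psaI (0.66 and 0.94) and petA (0.21 and 0.54).

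**Figure D5:**
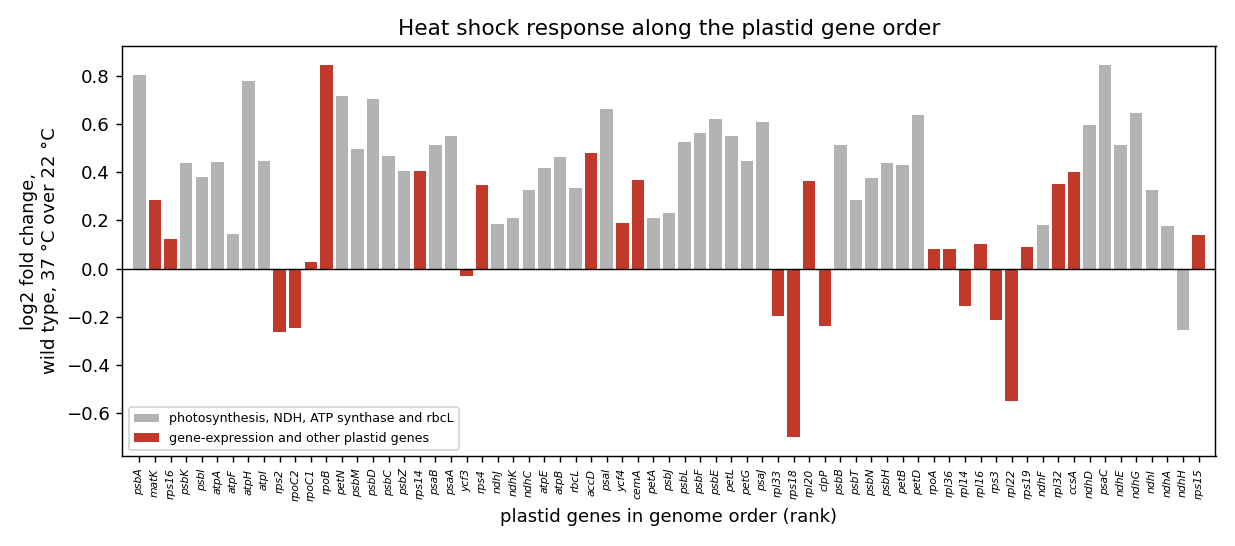
Log2 fold change from 22 °C to 37 °C in wild type, as deposited, for the 69 plastid genes in the order of the plastid genome (horizontal axis, rank), with the 26 gene-expression and other genes in red and the 43 others in grey. Of the bars below 0, 9 are red (of 26) and 1 is grey (of 43), while 11099 of all 17059 tested probe sets were below 0. rps18 lies at -0.70 near psaJ at 0.61, with rpl33 between them, and rpl22 at -0.55 lies beside rps19 at 0.09. A rescaling by 1 factor per array shifts the bars together, save for dim genes, and so moves many across 0. Quantile normalization shifts them unequally, with matK going from 0.29 to -0.18 and rps16 from 0.12 to 0.23.

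The genotypes were compared at each temperature and in their responses, and no member passed. At 22 °C, 0 members passed limma against a background of 0.00586% of probe sets (0.00586% higher, 0.0% lower), and 1 had an unadjusted p under 0.05 (background 3.85%). Samples labelled til1-1 lay above wild type without overlap for 1 member, rpl36 (background 18.3%), and below it for 2, matK and rps18 (background 19.9%). The smallest p was that of rpl36, with a difference of 0.25 ± 0.08 (unadjusted p = 0.00991 by limma), followed by rps18 at -0.17 and clpP at -0.16.

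At 37 °C, 0 members passed limma (background 0.0117%, with 0.00586% higher and 0.00586% lower), and 7 had an unadjusted p under 0.05 (background 13.4%). The samples labelled til1-1 lay above wild type for 10 members (background 20.9%) and below for rpl22 and rpl36 (background 18.5%). The per-sample values given above show this for rpl32, rpoA and rpl36, which had the smallest p. Differences were -0.38 ± 0.08 for rpl36 (adjusted p = 0.103), 0.31 ± 0.08 for rpl32 (adjusted p = 0.145) and 0.38 ± 0.10 for rpoA (adjusted p = 0.178). The median difference was 0.11 over the members, 0.15 over the other plastid genes and 0.01 over all tested probe sets.

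The difference of the heat shock responses, which shares the 37 °C samples with the comparison just described, had 0 members that passed limma (background 0.00586%, with 0.0% higher and 0.00586% lower). An unadjusted p under 0.05 was reached by 7 members (background 6.78%). The response of rpl36 was lower in the samples labelled til1-1 than in wild type, at -0.63 ± 0.11 on the log2 scale (95% confidence interval -0.87 to -0.38, unadjusted p = 0.000139, adjusted p = 0.552). For rps18 the response differed by 0.38 (95% confidence interval 0.11 to 0.64, adjusted p = 0.65) and for rpl32 by 0.32 (0.09 to 0.56, adjusted p = 0.65). With spiked controls, rpl36 alone of the members had an unadjusted p under 0.05 for this difference. A p that misses the threshold does not show that the genotypes responded alike.

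Nuclear genes that act with the plastid-made proteins were read from lists, of which few members had a single-gene probe set. Of 23 nuclear genes of plastid transcription only AT5G15700 was measured, a phage-type RNA polymerase (RPOTmp) of plastids and mitochondria. It was dim, fell by 1.08 in wild type (adjusted p = 0.0141) and was at -0.61 in the samples labelled til1-1 (adjusted p = 0.134). In wild type its fall passed as deposited and with spiked controls, and not under the other scalings. Of 21 genes of plastid RNA processing and decay 2 were measured, and both fell in each genotype as deposited: AT5G42310 (CRP1, a pentatricopeptide repeat protein) at -0.26 and -0.30, and AT1G60000 at -0.42 and -0.60. In wild type neither passed with array medians set equal, where their median was 0.01.

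Among 39 genes of plastid ribosomes and translation 8 were measured. As deposited, 3 rose and 1 fell in wild type, and 2 rose and 1 fell in the samples labelled til1-1, whereas with spiked controls 5 and 6 fell. FUG1, the plastid translation initiation factor 2, had -0.62 and -0.58, the ribosome-associated protein gene AT5G24490 had 0.35 and 0.38, and AT3G54210, for ribosomal protein L17, had 0.31 and 0.05. Among 33 nuclear partners of the clpP, accD, ccsA and ycf products 9 were measured. As deposited, 2 rose and 2 fell in wild type and 1 rose and 1 fell in the samples labelled til1-1, and with array medians set equal 6 and 7 rose. CcdA, which acts with ccsA in cytochrome assembly, had 0.35 and 0.41, CLPP4, a nuclear-encoded subunit of the Clp protease, had 0.31 and 0.23, and MDH, the plastid NAD-dependent malate dehydrogenase, had -0.32 and -0.39.

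Tissue markers moved with heat shock too. Of 7 root markers 3 were measured (PYK10, EXPA7 and EXPA18), and all 3 fell in both genotypes under each of the 4 scalings. Their summed intensity was 17140 to 18840 in wild type at 22 °C and 10640 to 11600 at 37 °C, and 16420 to 16720, then 8980 to 9153, in the samples labelled til1-1. Of 8 markers of photosynthetic tissue 3 were measured (RCA, LHCB4.1 and PSAE-1), and all 3 rose in both genotypes as deposited, while quantile normalization gave falls for 3 in wild type and 2 in the samples labelled til1-1. Their summed intensity was 50950 to 55780, then 69350 to 70690, in wild type, and 49420 to 51630, then 79910 to 81060, in the samples labelled til1-1. None of the 6 probe sets was at 0 in any sample, and the part of these markers in the plastid results was not tested.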

How the data were processed

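Biotin-labelled RNA of 8 samples was read on Affymetrix arrays, per the labels. The deposited table holds 1 linear intensity per probe set (22810), made by the authors with GCOS, per the submitters' processing notes. The sources used here give no version, algorithm or scaling. The deposited intensities have a common mean after 2% of values at each end are trimmed. Read depth does not apply to arrays, and no detection calls were used.

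Samples were grouped by title. Gene names came from GEO's platform annotation, with current symbols looked up through the gene ID in a TAIR10.1 table (13436 of 13513 single-gene probe sets matched). The other probe sets were 64 controls, 503 paired with several genes and 8730 unlisted. 7 plastid probe sets paired with 2 loci were left out. The mitochondrial comparison set matched no gene ID and was not used.

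The 64 controls and the dimmest 25% of probe sets by mean were left out. log2(intensity + 16), which understates changes of dim probe sets, was fitted with limma 3.58.1 in R 4.3.3 (lmFit, eBayes with an intensity trend) over all 8 samples in 4 groups, with 4 residual degrees of freedom, and p-values were adjusted over 17059 probe sets (Benjamini-Hochberg). Calls rest on an adjusted p under 0.05. Errors are standard errors from limma unless given as SD. The fit was tested on simulated data. Log2 ratios of 2 probe sets within an array were read only for their change, since probe sets differ in sensitivity. Gene order came from the TAIR10.1 table, and no coordinates were used.

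Alternatives were other array scalings (medians, quantile, 9 spiked controls), other constants (1 and 64), filters (none, 50%), eBayes without a trend, a replicate block, and each sample left out. By rule, every gene is named with its log2 fold changes. Sample values are given for the 4 highest and 4 lowest changes in each heat comparison, the highest mean of each role, the smallest 3 p-values in each genotype comparison, and clpP, accD and the rpo genes. From each nuclear list, the 3 genes with the largest change in wild type are named. The genes and lists were chosen with earlier results of these data known.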

Additional observations from a re-analysis of the deposited data

Results flagged for a closer look

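Signals after heat shock also appeared among the 7 plastid probe sets that are paired with 2 loci and were left out of the comparisons. Changes of 4 of them passed limma as deposited; none of these is named, since each is paired with 2 loci. The first read 18237 and 20168 in wild type at 22 °C and 28521 and 25881 at 37 °C, a log2 fold change of 0.50 (limma adjusted p = 0.000202), and its change in the samples labelled til1-1 was 0.53 (adjusted p = 0.00013). For the second the changes were 0.45 in wild type and 0.44 in the samples labelled til1-1. For the third, 0.40 in wild type passed. The fourth was lower after heat shock, with changes of -0.28 in wild type and -0.33 in the samples labelled til1-1. Groups of 2 samples were too small for a search for outlying samples.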

How the results depend on the processing

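Array scaling moved the counts and medians of the heat comparisons, while the genotype comparisons kept 0 calls; the cause was not tested. The sign changes listed are those with a call under either scaling. With array medians set equal, rises and falls among the members numbered 16 and 1 in wild type (median 0.45) and 19 and 2 in the samples labelled til1-1 (median 0.52). In the latter, rps18 (0.014) and rps3 (0.30) changed sign, and 7 members in wild type and 4 in the samples labelled til1-1 did so without a call. Quantile normalization gave 1 and 8 in wild type (median -0.18) and 4 and 9 in the samples labelled til1-1 (median -0.058). Sign changes with a call in wild type were matK -0.18, rps4 -0.18, cemA -0.18, rpl16 -0.43, rpl32 -0.027 and ccsA -0.090, and in the samples labelled til1-1 rps4 -0.018, cemA -0.23, clpP -0.40 and rpl16 -0.665 (5 and 3 more without a call). Spiked controls gave 0 and 15 in wild type (median -0.36) and 0 and 12 in the samples labelled til1-1 (median -0.29), with 0 rises at an unadjusted p under 0.05 by limma, while 65.1% and 66.6% of all tested probe sets fell. Sign changes with a call in wild type were matK -0.17, rpoC1 -0.43, rps4 -0.11, cemA -0.093, rpl20 -0.094, rpoA -0.38, rpl36 -0.38, rpl16 -0.36, rps19 -0.37, rpl32 -0.11, ccsA -0.058 and rps15 -0.32, and in the samples labelled til1-1 clpP -0.34, rpoA -0.033, rpl14 -0.30, rpl16 -0.46 and rps15 -0.33 (2 and 6 more without a call).

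Leaving out 1 sample at a time gave 3 to 8 rises and 2 to 3 falls in wild type (median 0.06 to 0.10) and 6 to 14 rises and 2 to 6 falls in the samples labelled til1-1 (median 0.018 to 0.38). Genotype comparisons had 0 to 0 calls. For single members, 387 values kept their side of the threshold, 13 lost a call and 16 gained one. These counts include fits without a sample of the other genotype, which cannot change the fold change but only its p. The replicate block gave 9 rises and 3 falls in wild type and 10 rises and 3 falls in the samples labelled til1-1, losing no call. For the block, and for the ranges over left-out samples, no share of all tested probe sets is set beside the counts. They are read only against the main fit. Same-numbered samples had deviations correlated at -0.04 to 0.14, not all above 0.1, so the numbers were not taken to pair them. Without an intensity trend 3 calls of members were lost and 1 gained, without a filter 1 was lost, and with a constant of 64 1 was gained. With 50% of probe sets left out rpoB and rps14 could not be tested.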
